A study of Gallus gallus with 8 samples.

Results

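Internal-exon m6A peaks of chicken liver mRNA are the subject here: stretches of RNA that the authors listed as enriched by an anti-m6A antibody and annotated to an exon that is neither the first nor the last of its transcript. They were taken from the authors' lists for control and for LPS-treated liver. The wording of the annotation (exon k of N, with k above 1 and below N) chose among the listed peaks, not a measured value. The listing itself rests on measured enrichment by the antibody. The control list held 2245 of them among 7813 peaks and the LPS list 1846 among 5938, in all 4091 of 13751 peaks. They lay in 1946 genes, called hosts below, of which 1796 have a symbol.

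N6-methyladenosine (m6A) is a methyl mark placed on nascent mRNA by a nuclear writer complex whose subunits include METTL14, WTAP, RBM15, ZC3H13 and VIRMA, removed by the demethylases FTO and ALKBH5, and bound by YTH-domain readers that act on mRNA decay, translation and splicing. In mammals the mark gathers around stop codons, in 3′ UTRs and in unusually long internal exons, and it is sparse in short internal exons because the exon junction complexes left at splice sites keep the writers away. UTR peaks are annotated apart, so internal-exon peaks lie mostly in coding sequence and show which part of the body of a transcript carries the mark.

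The livers came from 21-day-old broiler chickens taken 2 h after an intraperitoneal injection. The LPS birds had received lipopolysaccharide of Escherichia coli 055:B5 at 1 mg/kg, and the control birds an equal volume of PBS; no genotype, strain or other agent is named for either group. Poly(A) RNA was fragmented, a part was kept as input, and the rest was precipitated with the antibody, giving 2 input and 2 precipitated (IP) libraries per state, 8 libraries in 4 groups. Peaks are given as 1 list per state, so a peak has no replicate value, and RNA level is given as FPKM (fragments per kilobase of transcript, scaled to library size) in the 4 input libraries. Whether the replicates of a group are separate birds is not stated in the labels, so the p-values below measure the spread between libraries, which may be technical. An IgG precipitate is mentioned in the protocol and was not analysed here.

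The input RNA had the profile of liver: 9 of 10 hepatocyte markers were found, ALB, APOA1 and TTR among them, and their summed level was 60325 to 65403 FPKM in the 4 libraries. The 5 macrophage markers found (CSF1R, MARCO, C1QA, C1QB and TLR4) summed to 449 and 487 FPKM in control and to 208 and 202 FPKM in LPS input, and all 5 fell (limma, Benjamini-Hochberg adjusted p under 0.05). Of all tested genes 31.4% fell, a share that depends on the scaling, as given below. Summed markers of T and NK cells were between 24.2 and 35.5 FPKM, those of B cells between 191 and 258 FPKM, and those of heterophils between 4.54 and 11.2 FPKM. Other types moved too. Endothelial markers summed to 51.0 and 43.7 FPKM in control and 34.2 and 27.9 FPKM in LPS input (2 of 4 fell). Bile duct markers had 29.4 and 53.7, then 62.6 and 89.4 FPKM (1 of 3 rose, 1 fell). Thrombocyte markers had 5.12 and 8.68, then 18.4 and 15.8 FPKM (1 of 2 rose). Of 4 stellate and fibroblast markers 1 rose and 1 fell. None of the 6 erythrocyte markers was matched in the table. In bulk tissue fewer cells of a type and less RNA per cell cannot be told apart, which applies to every input level below.

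Internal exons were the second largest class of peaks in both lists. They held 28.7% of the control peaks (Wilson 95% interval 27.7 to 29.7%) and 31.1% of the LPS peaks (29.9 to 32.3%), after the 3′ UTR with 45.2% and 42.2%; intervals cover counting error only. Each of the 5′ UTR, first-exon and last-exon classes held between 7.09% and 10.5% of a list. The enrichment of these peaks was low. Fold enrichment, the authors' ratio of IP over input at a peak, had a median of 4.31 over the internal-exon peaks of the control list (interquartile range 2.68 to 7.97, full range 1.16 to 1240) and of 4.04 over those of the LPS list (2.56 to 7.05, range 1.17 to 748). The other 4 classes had medians between 5.27 and 6.62 in the control list and between 4.82 and 6.56 in the LPS list. A fold enrichment of 10 or more was reached by 17.9% of internal-exon peaks in the control list, beside 27.0% of all its peaks, and by 15.8% beside 22.6% in the LPS list. Values below 2 were found for 11.6% and 11.8% of internal-exon peaks, beside 7.24% and 7.65% of all peaks. With 1 list per state these class differences have no replicate check and were not tested.

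The lower enrichment was also present among peaks of like length, up to 400 bases. Among peaks shorter than 150 bases the internal-exon median was 2.36 in the control list, against 2.88 to 4.38 in the other classes, and 2.28 in the LPS list against 3.02 to 3.81. Among peaks of 400 bases or more the medians drew closer: the internal-exon value was 10.3 against 10.7 or more in the control list, and 9.38 in the LPS list, where last-exon peaks had a lower median of 8.57. Fold enrichment also moved with the level of the host: Spearman's rho across peaks between fold enrichment and host FPKM in the same state was -0.42 over the 2245 control peaks and -0.43 over the 1846 LPS peaks. Input enters both quantities, and peaks of a gene share its level, so this is a description of these lists. At like host level internal exons did not always have the lowest median: in the control list at 5 to 10 FPKM it was 4.71 for last-exon and 4.84 for internal-exon peaks, and in the LPS list below 5 FPKM 5.52 and 6.15. In the other 6 combinations of list and host level the internal-exon median was the lowest. The median host level of an internal-exon peak was 11.4 FPKM in the control list and 12.3 FPKM in the LPS list, between that of last-exon peaks (5.76 and 6.89 FPKM) and that of 3′ UTR peaks (15.4 and 16.2 FPKM).

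**Figure D1:**
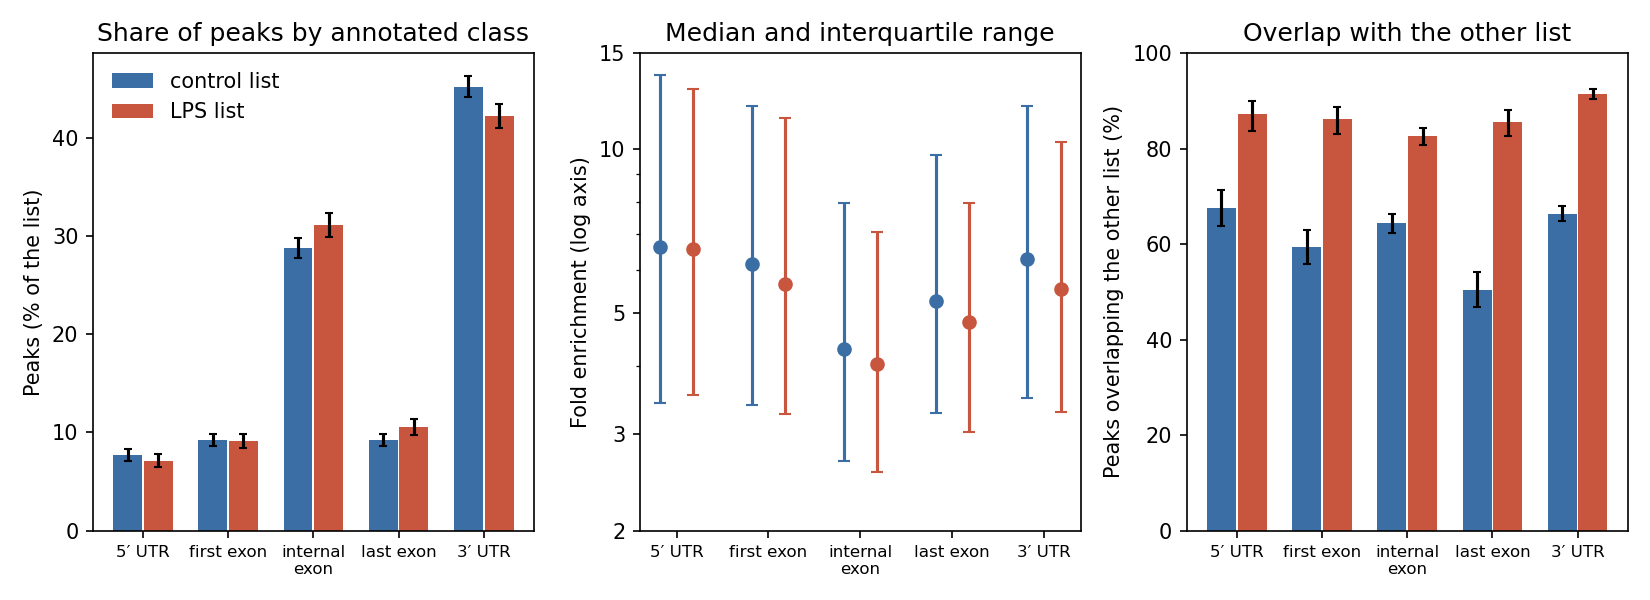
The 5 annotated classes in the control (blue) and LPS (red) peak lists: share of the list with Wilson 95% intervals, median fold enrichment with the interquartile range on a log axis, and percent of peaks overlapping a peak of the other list with Wilson 95% intervals. Internal exons hold 28.7% and 31.1% of the lists and have the lowest median fold enrichment, 4.31 and 4.04.

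Most internal-exon peaks crossed splice junctions. A peak is listed as 1 or more blocks, each the part of it that lies in 1 exon, and 61.1% of the control and 61.8% of the LPS internal-exon peaks had more than 1 block, beside 35.3% and 34.4% of all peaks. The 5′ UTR peaks came close, with 57.3% and 52.3%, while last-exon peaks all had 1 block. The inner blocks of peaks with 3 or more blocks, which span an exon from end to end, had a median length of 105 bases in the control and 106 in the LPS list. Added over blocks, the median length was 238 and 210 bases, while the longest block had a median of 162 and 151 bases. Peaks with a block of 400 bases or more made up 10.4% and 8.45% of internal-exon peaks, beside 23.7% and 17.0% of 3′ UTR peaks and 12.5% and 8.31% of 5′ UTR peaks.

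The longest block of an internal-exon peak moved with the enrichment of the peak and with whether the peak was listed in both states. This block is a part of the peak, and exon length was not measured. In the control list the median fold enrichment was 2.42 for peaks whose longest block was under 100 bases, 3.69 at 100 to under 200 bases, 6.41 at 200 to under 400 bases and 11.3 at 400 bases or more. The same 4 values in the LPS list were 2.35, 3.55, 6.03 and 10.4. Spearman's rho across peaks was 0.62 in the control and 0.58 in the LPS list, whereas rho with the number of exons of the transcript was -0.02 and 0.03. The share overlapping a peak of the other list went from 42.9% in the shortest of these groups to 90.6% in the longest for the control list, and from 63.6% to 98.1% for the LPS list. By length of the whole peak, such a gradient was not particular to internal exons. Median fold enrichment and overlapping share were higher at 400 bases or more than under 150 bases in every class and list. For 3′ UTR peaks of the control list they went from 2.88 to 11.2 and from 34.5% to 88.8%. The longest block was not compared between classes in this way. Longer blocks also hold more reads, and the part this has in calling a peak was not tested.

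**Figure D2:**
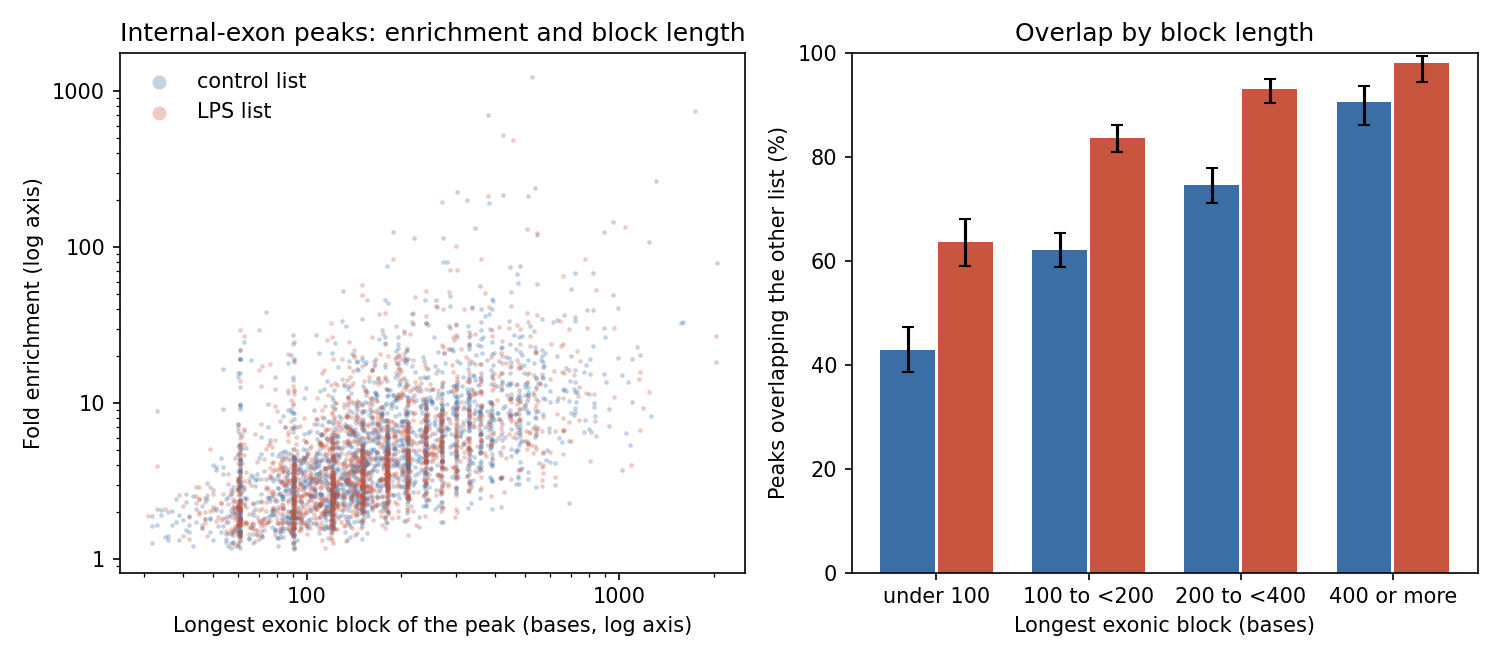
Left, fold enrichment against the longest exonic block of each internal-exon peak (both log axes; 2245 control peaks in blue, 1846 LPS peaks in red). Right, percent of internal-exon peaks overlapping the other list by the same block length, with Wilson 95% intervals; it goes from 42.9% to 90.6% in the control list and from 63.6% to 98.1% in the LPS list.

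By exon number, the peaks were spread along the transcript, with fewer towards its ends. The host transcript had a median of 14 exons in both lists (from 3 to 107), and the peak sat in a median exon number of 7. With the exon order cut into 4 equal stretches, 21.6%, 26.9%, 25.9% and 25.6% of the control peaks lay in the first to the last. For the LPS peaks the shares were 21.9%, 27.2%, 25.7% and 25.2%. The part from 0.0 to 0.1 of the exon order held 5.35% of the control and 5.85% of the LPS peaks. The part from 0.9 to 1.0 held 7.44% and 6.61%, while 0.7 to 0.8 held 13.1% and 12.1%. The rule leaves out first and last exons, and the internal exons available at each position were not counted. At the limits of the definition the members had higher medians than the inner exons. Second exons held 14.9% of the control members with a median fold enrichment of 5.02, beside 6.17 for first-exon peaks. Penultimate exons held 16.4% with a median of 5.15, beside 5.27 for last-exon peaks outside UTRs. The 70.8% of control members in neither position had a median of 4.02. In the LPS list the medians were 4.60 for second exons, 4.22 for penultimate exons and 3.90 for the remainder.

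The most enriched internal-exon peaks stood far above the medians; coordinates are those of the authors' lists, of a build not given in the sources used here. IGSF9, an immunoglobulin-family adhesion gene, had the highest peak, with a fold enrichment of 1240 in the control list (chr25:1691235-1692904, exon 17 of 20) and 487 in the LPS list (exon 18 of 20). WASF2, a subunit of the WAVE complex that starts branched actin, had 705 in the control and 213 in the LPS list (chr23:1955267-1957466, exon 7 of 9). DNAAF2, needed for assembling the dynein arms of cilia, had 215 and 522 (chr5:57491516-57493362, exon 2 of 3). C6orf132 had 266 and 748 (chr26:3145314-3146625 in the control list). The order of the top peaks thus differed between the lists, IGSF9 being first in the control list and C6orf132 in the LPS list; values of separate lists are set side by side here and show no change.

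The remainder of the 10 highest internal-exon values in the lists came from the following genes. CCNK, the cyclin of the transcription kinases CDK12 and CDK13, had 240 in the control list and its LPS partner 37.6. ATN1, a transcriptional corepressor, had 212 in the control list and a lower shared peak in the LPS list, CALD1, the actin-binding caldesmon, 146 and 134, and CDH3, a cadherin, 125 and 83.9. TTC25, which docks dynein arms in cilia, had 192 in the control list, overlapped in the LPS list by a peak of 150 annotated to the last exon. KLF4, a zinc finger transcription factor, had 132 in the control list (chrZ:55529424-55529854, exon 3 of 5) and no LPS peak. In the LPS list the highest 10 also held PRRC2C, an RNA-binding protein, with 131 (74.3 in the control list), and SEMA6B, a guidance semaphorin, with 83.8 (33.1 in the control list). ZC3H13, a subunit of the m6A writer complex itself, had 123 in the LPS list (chr1:167263094-167268369, exon 11 of 19, longest block 544 bases) and 120 in the control list.

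The RNA of these genes was called higher or lower for some and not for others. IGSF9 had 11.7 and 18.4 FPKM in control input and 8.44 and 11.8 FPKM in LPS input, so its groups overlapped. DNAAF2 had 14.9 and 15.5 FPKM in control and 15.4 and 13.7 FPKM in LPS input, again overlapping. C6orf132 rose from 8.79 and 13.5 FPKM to 40.9 and 35.0 FPKM (log2 difference 1.70 ± 0.23 SE, limma adjusted p = 0.00117), and CALD1 rose from 12.8 and 9.93 to 33.6 and 35.4 FPKM (1.53 ± 0.19, limma adjusted p = 8.69e-04). All log2 differences are LPS minus control of log2(FPKM + 1), with 2 libraries a group, and understate the change of low genes. ZC3H13 went from 22.3 and 19.5 to 13.2 and 11.7 FPKM (-0.71 ± 0.18, limma adjusted p = 0.0178). Its call was lost when libraries were scaled to equal medians (adjusted p = 0.117), without control input replicate 1 (adjusted p = 0.0608) and without LPS input replicate 2 (adjusted p = 0.102).

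Few genes carried several internal-exon peaks. Of the 1657 control hosts 76.5% had 1 such peak and 122 had 3 or more, and of the 1382 LPS hosts 76.9% had 1 and 93 had 3 or more. The maximum was 9 in each list. Among the genes with the most peaks over both lists were BAHCC1, a chromatin protein with a BAH domain (9 control and 7 LPS peaks), ANKRD11, a chromatin coregulator (8 and 8), SETD2, the methyltransferase that trimethylates histone H3 lysine 36 (6 and 5), and RAI1, a transcriptional regulator (6 and 5). Peaks of a gene share its RNA level and are not independent of each other.

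In RAI1 all 11 peaks were annotated to exon 2 of 5. Their fold enrichments in the control list were 9.24, 8.79, 4.05, 6.31, 8.53 and 13.2 in order along the chromosome, and in the LPS list 10.5, 5.22, 5.29, 4.63 and 7.30. ANKRD11 had a like arrangement, with 5 control and 6 LPS peaks in exon 9 of 13. These reached a fold enrichment of 11.7 in the control list (chr11:18083176-18083895) and 14.4 in the LPS list (chr11:18085751-18086290), and 1 control peak ran for 1259 bases within that exon. By annotation the RAI1 peaks thus lay in 1 exon and those of ANKRD11 in exons 8 and 9. The RAI1 peaks of 13.2 and 7.30 had 4 blocks each, so they ran beyond exon 2. Exon lengths were not measured here.

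BAHCC1 was spread over many exons. In BAHCC1 the control values ranged from 3.21 to 56.3, with the highest in exon 7 of 25 (chr18:9485699-9486291), and the LPS values from 2.86 to 18.8. Every control peak of BAHCC1 with an LPS partner had a higher listed value than that partner. In SETD2 the highest value was 16.7 in the control list (6 blocks, annotated to exon 11 of 20) and 13.5 in the LPS list (same exon).

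None of these 4 genes was called higher in LPS input. BAHCC1 had 8.52 and 8.51 FPKM in control and 4.66 and 5.30 FPKM in LPS input (log2 difference -0.67 ± 0.19 SE, limma adjusted p = 0.0244), and SETD2 had 16.3 and 17.0 against 10.6 and 10.5 FPKM (-0.62 ± 0.18, limma adjusted p = 0.0253). Both of the latter calls were lost with libraries scaled to equal medians (adjusted p = 0.163 and 0.193). The BAHCC1 call was also lost without any 1 of the 4 libraries (adjusted p between 0.0537 and 0.173), and that of SETD2 without control replicate 2, LPS replicate 1 or LPS replicate 2 (0.0609, 0.111 and 0.126). ANKRD11 (19.4 and 17.4, then 14.1 and 14.6 FPKM) and RAI1 (3.40 and 3.98, then 3.61 and 5.46 FPKM) were not called.

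**Figure D3:**
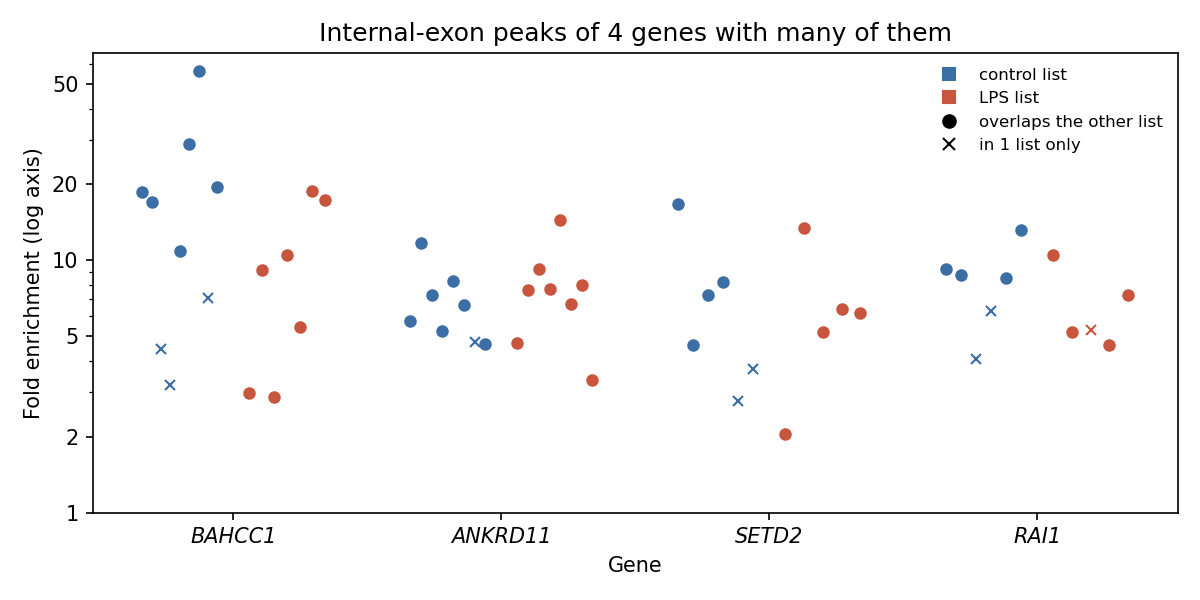
Fold enrichment (log axis) of every internal-exon peak of 4 genes with many of them, in the control list (blue) and the LPS list (red), in chromosomal order within each gene and list; circles overlap a peak of the other list and crosses do not. The control peaks of BAHCC1 reach 56.3, while the peaks of RAI1 lie between 4.05 and 13.2.

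Overlap between the states was counted as at least 50% of the shorter peak on the same strand. By this measure 1446 of the 2245 control internal-exon peaks (64.4%, Wilson interval 62.4 to 66.4%) were also listed in LPS liver, beside 63.8% of all control peaks. Of the 1846 LPS peaks, 1524 (82.6%, 80.8 to 84.2%) were also listed in control liver, beside 87.3% of all LPS peaks and 91.5% of the LPS peaks in 3′ UTRs. The control share was thus close to that of the whole list. The LPS share was the lowest of the 5 classes by this rule, and 17.4% of the LPS internal-exon peaks (322) were in that list only. Where the overlap had to reach 50% of both peaks the shares were 52.9% in the control and 65.1% in the LPS list. In the LPS list last-exon peaks then had the lower share, 55.2%. By the first rule, the LPS internal-exon share was the lowest among peaks below 250 bases only. Under 150 bases it was 60.4% against 69.4 to 76.0%, and at 400 bases or more 98.1% against 95.4 to 99.2%. By host level, first-exon peaks had a lower share below 5 FPKM and last-exon peaks from 30 FPKM on, but no class between.

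Overlapping peaks mostly kept their annotation. Of the control members with a partner, 94.5% (1366) had an internal-exon partner, and of the LPS members 91.5% (1394), with 71 LPS members paired to a control 3′ UTR peak. Over the 1446 shared control peaks, Spearman's rho between the listed fold enrichment and that of the LPS partner was 0.85. Peaks in 1 list only were weaker and shorter. Their median fold enrichment was 3.43 for the 799 control-only peaks against 5.00 for shared ones, and 2.42 for the 322 LPS-only peaks against 4.60. Median lengths were 151 bases against 270, and 121 against 240. This was not particular to internal exons. Over peaks of all classes the median fold enrichments were 3.93 against 6.88 in the control and 2.93 against 5.39 in the LPS list. Their median lengths were 179 bases against 300, and 121 against 240. From the lowest to the highest quartile of fold enrichment the overlapping share went from 51.8% to 80.4% in the control list and from 61.9% to 95.9% in the LPS list.

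The most enriched control-only peaks lay mostly in hosts of low RNA level. After KLF4 came 2 peaks in SPEG, a kinase of striated muscle (76.0 and 44.0), and 1 each in SLC2A4RG (45.8), a regulator of the GLUT4 gene, and WIPF3 (45.8), which binds actin-regulating WASP proteins. AATK, a kinase, had peaks of 45.3 and 32.1, PHC2, a Polycomb subunit, had 29.3, Blec1, a C-type lectin of the MHC region, had 27.5 and THSD7A, a thrombospondin-repeat protein, had 24.7. KLF4 had 2.37 and 3.22 FPKM in control and 1.48 and 1.12 FPKM in LPS input (log2 difference -0.72 ± 0.23 SE, limma adjusted p = 0.0400). That call was lost at equal medians (adjusted p = 0.192) and without control replicate 2, LPS replicate 1 or LPS replicate 2 (0.133, 0.0719 and 0.221). SLC2A4RG fell from 3.95 and 7.77 to 0.964 and 1.06 FPKM (-1.71 ± 0.29, limma adjusted p = 0.00331). PHC2 fell from 24.7 and 28.5 to 13.3 and 14.6 FPKM (-0.88 ± 0.18, limma adjusted p = 0.00689). SPEG and WIPF3 had overlapping groups.

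LPS-only peaks were weaker at the top. The highest was in RNF214, a RING finger protein, with 45.7 (chr24:5248587-5249969, exon 2 of 14), and 3 internal-exon peaks of this gene were listed in LPS liver and none in control liver. Its RNA did not differ detectably: 11.8 and 11.9 FPKM in control and 13.1 and 15.5 FPKM in LPS input (log2 difference 0.24 ± 0.18 SE, limma adjusted p = 0.317). MYOM1, a sarcomere protein, had 29.5, ARID4B, a chromatin protein, 27.6, and RXFP2, a relaxin-family receptor, 19.7. GLOD4 and HIVEP3, a zinc finger protein that binds κB sites, had 13.8 each, WDR86 13.2, DENND4C, a Rab exchange factor, 11.9, ALPK3, a cardiac kinase, 11.4 and DDX55, an RNA helicase, 10.7. MYOM1, RXFP2, HIVEP3 and DENND4C lay below the expression filter of a mean of 1 FPKM. WDR86 alone among these 10 hosts was called different, from 1.06 and 2.39 to 54.6 and 59.3 FPKM.

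The RNA of hosts was compared between LPS and control input with limma over the 9484 genes whose mean reached 1 FPKM. Of the 1946 hosts 1881 were tested and 65 lay below the filter. Among the tested hosts 248 rose (13.2%) and 569 fell (30.2%), beside 10.7% and 31.4% of all tested genes; the median log2 difference was -0.28 for hosts and -0.34 for all tested genes. Hosts as a whole therefore stood near the background. The direction of this balance rests on the scaling: with libraries scaled to equal medians 314 hosts were higher and 301 lower, and over all genes 1349 were higher and 1508 lower, in place of 1014 and 2982. The median of all tested genes then moved from -0.34 to -0.06.

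Sorted by peak, the hosts moved apart. The 692 genes with a control-only internal-exon peak had a median level of 7.52 FPKM in control and 4.54 FPKM in LPS input; of the 644 tested, 19 rose (2.95%) and 303 fell (47.0%), with a median log2 difference of -0.59. The 293 genes with an LPS-only peak had 8.53 and 15.7 FPKM; of 286 tested, 111 rose (38.8%) and 21 fell (7.34%), with a median of 0.27. The 1229 genes with a shared peak had 13.2 and 11.3 FPKM; of 1216 tested, 152 rose (12.5%) and 326 fell (26.8%), with a median of -0.24. At equal medians the control-only hosts had 31 higher and 176 lower, the LPS-only hosts 131 and 6, and the shared hosts 198 and 153, so the balance of the shared hosts turned while that of the other sets did not. Without LPS input replicate 2 the 21 falls among LPS-only hosts became 8. Input RNA enters the calling of a peak, so a host's level and its listing are not independent measures, and the share of either in the other was not tested.

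The same split was present in the other classes of peaks. Among tested genes with a control-only peak, 52.8% of 3′ UTR, 53.7% of first-exon, 58.1% of 5′ UTR and 41.0% of last-exon hosts fell, beside the 47.0% of internal-exon hosts. Among genes with an LPS-only peak, 40.0% of 3′ UTR, 54.8% of first-exon, 47.1% of 5′ UTR and 43.6% of last-exon hosts rose, beside 38.8%. The macrophage markers named above fell in the same libraries, and their part in these counts was not tested.

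**Figure D4:**
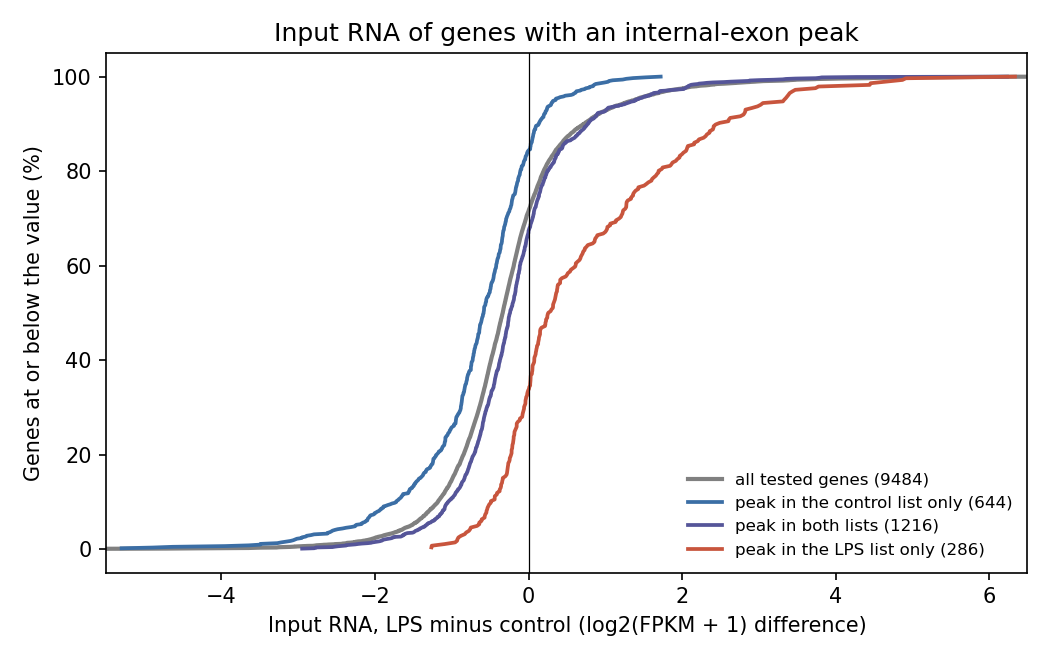
Cumulative percent of tested genes by log2(FPKM + 1) difference, LPS minus control, for all 9484 tested genes (grey) and for hosts with a control-only (blue, 644), shared (purple, 1216) or LPS-only (red, 286) internal-exon peak. The shared curve lies near the grey one, and the medians of the other sets lie at -0.59 and 0.27.

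Genes with an internal-exon peak in 1 list only did not always lack other peaks in the other list. Absence from a list does not show that a peak was lost, as no difference in peaks was tested. Of the 692 genes with a control-only internal-exon peak, 320 (46.2%, Wilson interval 42.6 to 50.0%) had another peak in the LPS list and 372 had none. For genes with a control-only 3′ UTR peak that share was 34.2%, and for last-exon peaks 26.3%. The internal-exon genes with none in the LPS list had a median level of 5.70 FPKM in control and 2.57 FPKM in LPS input. Of those tested 53.7% fell. The genes with another peak had 11.4 and 7.92 FPKM, and 40.2% fell. Of the 293 genes with an LPS-only internal-exon peak, 161 (54.9%) had a peak in the control list. The 132 without had 5.97 FPKM in control and 14.5 FPKM in LPS input, and 48.8% of those tested rose, against 31.1% of the genes that had 1. Counted by peak, 359 of the 799 control-only peaks lay in hosts that fell, 21 in hosts that rose, 368 in hosts not called and 51 in hosts not tested; of the 322 LPS-only peaks 133 lay in hosts that rose, 23 in hosts that fell, 158 in hosts not called and 8 in hosts not tested.

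Of the 10 hosts with the largest rises 7 had LPS-only internal-exon peaks, most of them weak. Such peaks were found in 293 of all 1946 hosts and in 111 of the 248 that rose. As a host's level and its listing are not independent, this count is no separate support. TGM4, a transglutaminase, went from 2.70 and 2.23 to 317 and 244 FPKM (log2 difference 6.34 ± 0.20 SE, limma adjusted p = 2.62e-06), with an LPS-only peak of 4.86 in exon 9 of 14. TNIP2, which binds A20 and restrains NF-κB, went from 2.87 and 2.38 to 96.7 and 114 FPKM (4.87 ± 0.19, limma adjusted p = 6.80e-06), with an LPS-only peak of 1.63. TNFRSF6B, a decoy receptor for FAS ligand, went from 3.60 and 5.85 to 134 and 149 FPKM (4.66 ± 0.23, limma adjusted p = 1.41e-05), with an LPS-only peak of 3.25. Large rises and falls were taken from called hosts with both LPS libraries outside the control range, so separate groups follow from that choice. RNF19B, a ubiquitin ligase (4.92, peak 1.65), VNN1, a pantetheinase (4.45, peak 1.42), WDR86 (4.45, peaks 3.33 and 13.2) and OAS*A, an antiviral oligoadenylate synthetase (3.78, peak 1.76), rose with LPS-only peaks as well.

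Not every strong rise came with an LPS-only peak. MADCAM1, an adhesion ligand for lymphocytes, rose by 4.27 ± 0.38 SE on the log2 scale (limma adjusted p = 1.89e-04) and was listed in both states, with peaks of 3.15 and 3.21 in the control list and 1 peak of 5.13 over both of them in the LPS list. ITPKB, an inositol trisphosphate kinase, went from 5.87 and 7.27 to 537 and 596 FPKM (6.23 ± 0.18, limma adjusted p = 2.62e-06). Its control peak of 3.37 in exon 4 of 7 was overlapped in the LPS list by a peak of 15.3 annotated to the 3′ UTR. The same was found for NIPAL4, a magnesium transporter (log2 difference 3.82), with 2.41 in exon 6 of 7 and a partner of 2.21 in the 3′ UTR.

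The 9 hosts with large falls described here all had control-only internal-exon peaks. Such peaks were found in 692 of all 1946 hosts and in 303 of the 569 that fell. This count too is no separate support, as level and listing are not independent. HKDC1, a hexokinase family member, went from 329 and 266 to 11.9 and 3.42 FPKM (log2 difference -5.30 ± 0.43 SE, limma adjusted p = 1.21e-04), with control peaks of 1.76 and 3.38. CYP1A1, the xenobiotic-oxidising target of the aryl hydrocarbon receptor, went from 1297 and 1547 to 74.0 and 29.1 FPKM (-4.90 ± 0.38, limma adjusted p = 9.28e-05), with a peak of 3.34. CYP7A1, whose product limits the rate at which bile acids are made, went from 25.3 and 32.2 to 0.143 and 0.234 FPKM (-4.64 ± 0.21, limma adjusted p = 1.15e-05), with a peak of 2.04. The control and LPS libraries of these genes are separate by the choice given above. Of these genes CYP1A1 had 1 other peak in the LPS list, while HKDC1 and CYP7A1 had no peak there.

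ANGPTL4, an inhibitor of lipoprotein lipase (log2 difference -3.96), and ACSL5, an acyl-CoA synthetase (-3.22), had other peaks in the LPS list. CNKSR1, a scaffold of RAS signalling (-3.65), AQP11, an aquaporin (-3.49), CASKIN2, a scaffold (-3.27), and LIMK1, the kinase of cofilin (-3.16), had no peak in the LPS list. The fold enrichments of the internal-exon peaks in these 6 genes ranged from 1.45 in ACSL5 to 4.19 in CASKIN2.

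**Figure D5:**
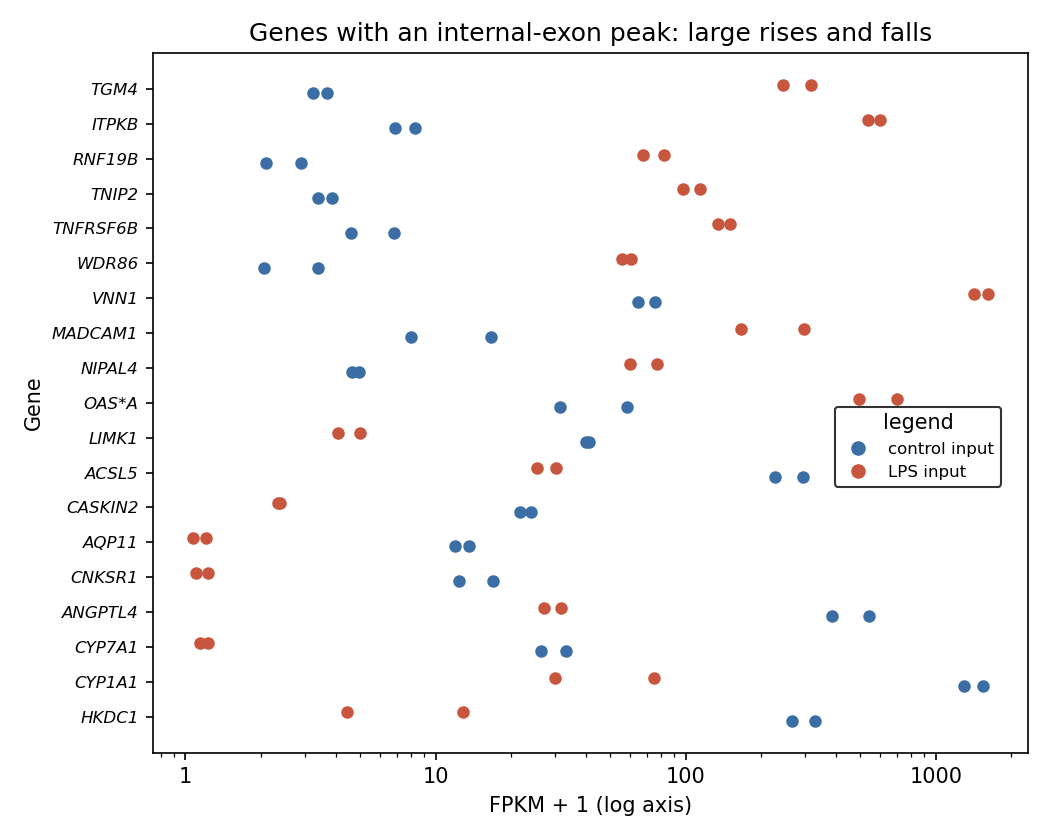
Input level of the 10 hosts with the largest rises (top) and of 9 with large falls, as FPKM + 1 on a log axis; each point is 1 library, control in blue and LPS in red. The genes were chosen from called hosts with both LPS libraries outside the control range, so separate groups follow from the choice.

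Genes were also counted by function, and the share of a list that hosted internal-exon peaks ranged from 11.1% to 59.0%. Over all 13427 genes it was 14.5%, but 8049 of these had no listed peak of any class. Of the 5378 genes with a peak 1946 were hosts. Among genes with a peak, hosts were 9 of 17 (m6A machinery), 46 of 60 (chromatin) and 18 of 25 (zinc fingers). For nuclear receptors they were 12 of 19, for NF-κB signalling 12 of 26 and for interferon 11 of 18. Cytokine receptors had 4 of 20, insulin signalling 9 of 26 and lipid synthesis 6 of 30. Lipid transport had 8 of 19, plasma proteins 20 of 32 and matrix genes 19 of 30. Cytoskeleton genes had 16 of 20 and cell cycle genes 12 of 17. No list was tested as a set. Calls in a list are to be read against those of all tested hosts (13.2% rose, 30.2% fell) and all tested genes (10.7% and 31.4%), and hosts are part of their list. Of 21 genes of the m6A machinery 9 were hosts (42.9%), with 32 peaks: the writer subunits ZC3H13, RBM15, WTAP, METTL14 and KIAA1429 (VIRMA), the readers YTHDC1, YTHDF1 and YTHDF3, and the RNA-binding protein FMR1. ZC3H13 had 7 control and 3 LPS peaks. RBM15 had 2 in each list, all in exon 3 of 4, with 14.3 and 6.96 in the control and 31.6 and 6.52 in the LPS list. YTHDC1, the nuclear reader, had peaks in exons 5 and 17 of 20 with 6.40 and 8.86 in the control and 6.10 and 7.92 in the LPS list. Each of the 9 hosts had a shared peak. Of them ZC3H13 alone was called (lower, with the limits given above) and none rose; at equal medians 1 was higher and none lower. In the whole list 1 of 20 tested genes rose and 6 fell (2 and none at equal medians).

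Chromatin modifiers and remodellers had the highest share counted over all genes of a list, 46 of 78 (59.0%), with 186 peaks. Of these hosts 3 rose and 10 fell (3 and 4 at equal medians). Their median log2 difference was -0.32, close to the -0.28 of all hosts and the -0.34 of all genes. In the whole list 4 of 71 tested genes rose and 15 fell (5 and 7 at equal medians). Zinc finger and other DNA-binding regulators had 18 of 46 genes as hosts. ZFHX3 had 6 peaks up to 11.6 and fell from 4.67 and 6.12 to 2.37 and 2.09 FPKM (log2 difference -0.98 ± 0.22 SE, limma adjusted p = 0.00975). ARID5B had 4 peaks up to 8.64 and rose from 10.1 and 9.08 to 43.2 and 46.7 FPKM (2.12 ± 0.18, limma adjusted p = 1.32e-04). HIVEP1, which binds κB sites, had 5 peaks up to 15.9 and rose from 5.47 and 4.51 to 14.02 and 9.86 FPKM (1.10 ± 0.23, limma adjusted p = 0.00718). Of the 17 tested hosts 4 rose and 4 fell, and of all 31 tested genes of the list 7 and 6.

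In Toll-like receptor and NF-κB signalling 12 of 37 genes were hosts (32.4%), and 9 of the 12 rose and none fell, also at equal medians. Rises were frequent in the whole list too, with 17 of 36 tested genes higher and 4 lower. NFKB2, the p100 precursor, had 4 control and 3 LPS peaks, all shared and between 1.51 and 6.66, and rose from 17.3 and 25.005 to 143 and 177 FPKM (log2 difference 2.88 ± 0.22 SE, limma adjusted p = 9.28e-05). TAB2, an adaptor of the kinase TAK1, had 3 peaks in each list, all in exon 2 of 6, and had 18.8 and 12.3 FPKM in control and 11.9 and 9.15 FPKM in LPS input (limma adjusted p = 0.133, and 0.0443 without control replicate 2). MAP3K14, the NF-κB-inducing kinase, had peaks up to 8.99. Its level was 9.63 and 11.8 FPKM in control and 17.6 and 22.9 FPKM in LPS input (0.86 ± 0.21, limma adjusted p = 0.0138). Its call was lost without control replicate 1 (adjusted p = 0.0588) and without LPS replicate 2 (0.0915).

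In the interferon response 11 of 24 genes were hosts (45.8%), and 8 of them rose and none fell (9 and none at equal medians). An LPS-only peak was found in 6 of these 11, beside 293 of all 1946 hosts and 111 of the 248 hosts that rose. As level and listing are not independent, this count is no separate support. In the whole list 17 of 24 tested genes rose and 1 fell. HELZ2, an interferon-induced helicase, had 4 LPS-only peaks between 2.25 and 2.97 in exons 5, 6 and 8 of 19 and none in control liver, with 4.20 and 4.46 FPKM in control and 25.7 and 38.4 FPKM in LPS input (log2 difference 2.60 ± 0.23 SE, limma adjusted p = 1.72e-04). RNF213, a giant ubiquitin ligase, had 1 control and 3 LPS peaks and rose from 4.57 and 4.44 to 19.1 and 29.0 FPKM (2.16 ± 0.23, limma adjusted p = 4.27e-04). ZNFX1, a helicase that senses viral RNA, had a peak of 22.8 in the control and 29.9 in the LPS list in exon 2 of 13, in both lists its strongest. It rose from 17.1 and 12.1 to 50.2 and 57.1 FPKM (1.83 ± 0.21, limma adjusted p = 5.80e-04). Cytokine receptors and JAK-STAT feedback genes had 4 hosts among 36 (11.1%). Of these hosts 1 rose and none fell (3 and none at equal medians). In the whole list 16 of 30 tested genes rose and 3 fell (18 and 2 at equal medians). PTPN2, a phosphatase of JAK kinases, rose in the unscaled values (2.08 ± 0.18, limma adjusted p = 1.62e-04). STAT3 had 152 and 166 FPKM in control and 210 and 208 FPKM in LPS input. It was not called (limma adjusted p = 0.0877) but was called at equal medians (adjusted p = 0.0193).

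Lipid synthesis genes were hosts about as often as all genes, and less often among genes with a peak. In cholesterol, fatty acid and triglyceride synthesis 6 of 41 genes were hosts (14.6%, beside 14.5% of all genes). A peak of some class was listed for 30 of the 41, so 6 of 30 were hosts, beside 1946 of 5378 over all genes. Of these hosts 5 fell and 1 rose, and of the 40 genes of the list tested 33 fell and 5 rose (32 and 5 at equal medians). FASN, fatty acid synthase, fell from 541 and 450 to 96.2 and 71.8 FPKM (log2 difference -2.55 ± 0.20 SE, limma adjusted p = 1.05e-04), with 3 control peaks and 1 LPS peak between 2.39 and 3.05. ACACA, which makes malonyl-CoA, fell from 147 and 169 to 29.2 and 16.9 FPKM (-2.77 ± 0.26, limma adjusted p = 2.20e-04), and its peak in exon 48 of 53 was listed in both states with 7.56 and 6.40. AGPAT2, an acyltransferase of phospholipid and triglyceride synthesis, fell from 60.1 and 79.3 to 11.8 and 15.8 FPKM (-2.25 ± 0.22, limma adjusted p = 2.65e-04) and had a shared peak of 7.05 and 4.66 in exon 6 of 7. The host that rose was HMGCS1, of the sterol pathway (log2 difference 2.05), named after its value was seen.

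Lipoprotein and lipid transport genes had 8 hosts among 24 (33.3%); of the 7 tested 4 fell and 1 rose, and of 21 tested genes of the list 13 and 1. APOB, the protein of very-low-density lipoprotein, had 2 control peaks (2.04 and 2.67) and 1 LPS peak (1.91) in its exon 26 of 29, with overlapping levels of 179 and 104 FPKM and 166 and 122 FPKM. Nuclear receptors and liver transcription factors had 12 hosts among 30 (40.0%), of which 5 fell and 3 rose (whole list, 7 and 4 of 25 tested). PPARGC1B, a coactivator of mitochondrial and lipid genes, had control-only peaks of 13.5 and 3.75 and fell from 4.65 and 3.86 to 0.752 and 1.36 FPKM (-1.37 ± 0.24, limma adjusted p = 0.00370). Insulin, IGF and kinase signalling genes had 9 hosts among 40 (22.5%), of which 5 were called lower (1 at equal medians) and none rose (whole list, 15 lower and 7 higher of 37 tested). IRS1, the insulin receptor substrate, had a shared peak of 10.3 and 4.69 in exon 2 of 3, with 11.1 and 14.8 FPKM in control and 6.76 and 5.89 FPKM in LPS input (-0.92 ± 0.21, limma adjusted p = 0.0113, and 0.0539 at equal medians).

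Plasma protein genes were often hosts and mostly not called. Of 39 complement, coagulation and plasma protein genes 20 were hosts (51.3%); 4 rose and 1 was called lower (8 and none at equal medians), and in the whole list 8 rose and 3 fell of 38 tested. C4, the complement component, had 5 peaks in each list with values of 1.27 to 5.19, and 223 and 281 FPKM in control and 356 and 289 FPKM in LPS input (limma adjusted p = 0.178, and 0.0450 at equal medians). F8, coagulation factor VIII, had 3 peaks in each list, all in exon 14 of 26 and between 3.77 and 6.12, with overlapping levels of 5.67 and 5.57 FPKM and 6.85 and 4.98 FPKM. Extracellular matrix and adhesion genes had 19 hosts among 51 (37.3%), of which 4 rose and 3 fell (5 and 1 at equal medians), and in the whole list 5 rose and 7 fell of 36 tested (9 and 4 at equal medians). COL6A2, a chain of collagen VI, showed the most divided peak named here: 17 blocks with a longest block of 90 bases, 900 bases in total in the control and 870 in the LPS list, at 12.8 in the latter.

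Cytoskeleton and giant scaffold genes had 16 hosts among 38 (42.1%), and of 14 tested 4 rose and 4 fell (5 and 3 at equal medians), and of 25 tested genes of the list 4 and 6 (5 and 5 at equal medians). The non-muscle myosin heavy chains moved in opposite directions. MYH9 rose from 48.5 and 54.1 to 119 and 135 FPKM (log2 difference 1.29 ± 0.17 SE, limma adjusted p = 0.00109), with 4 peaks in each list and 1 LPS peak of 11 blocks over 1707 bases. MYH10 fell from 21.4 and 30.2 to 7.83 and 10.4 FPKM (-1.40 ± 0.23, limma adjusted p = 0.00287), with 6 control and 3 LPS peaks. Cell cycle and DNA repair genes had 12 hosts among 37 (32.4%), with 1 called higher and 2 lower (1 and 1 at equal medians), and in the whole list 3 and 8 of 26 tested (3 and 3 at equal medians). CDK13, a kinase of RNA polymerase II, had its strongest peak in exon 3 of 16 in both lists, 28.7 and 12.3, and RIF1, which protects DNA ends, had 2 peaks in each list, all in exon 29 of 35; neither was called.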

How the data were processed

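Per the labels' protocols, poly(A) RNA was fragmented, immunoprecipitated with an anti-m6A antibody and sequenced with matched input. The deposited table gives the authors' FPKM for 13427 genes in the 4 input libraries. The deposited peak lists, 1 per state, give each peak's blocks, annotation, p-value, FDR on a log10 scale and fold enrichment, a ratio computed by the authors. The submitters' processing notes name HISAT2, StringTie, HOMER and ChIPseeker; which peak caller, build and filters were used is not given in the sources here. Columns headed as treated were taken as LPS, the treatment the labels name. FPKM hides depth: the smallest steps among low genes put the other input libraries at 0.818 to 0.891 of control input 1, from 8 to 12 genes each.

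Exact repeats were dropped (1 of 7814 control and 1 of 5939 LPS entries). The host is the annotated gene; for 35 control and 29 LPS members the nearest gene listed differs. log2(FPKM + 1) of genes averaging 1 FPKM or more was compared with limma 3.58.1 (R 4.3.3; trended prior, Benjamini-Hochberg threshold 0.05), tested on simulated data; tables were made with pandas 2.3.3. The replicate numbers do not pair the libraries (correlation of same-numbered deviations 0.03 over 9484 genes), so no block was used. Alternatives covered pseudocount, filter, scaling, block, prior, left-out libraries, overlap rule, peak strength and exon definition.

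The members and the 14 gene lists were chosen with earlier results of these data known, so neither is independent support. Genes named are the 10 highest fold enrichments per list, the 5 genes with most peaks, the 10 highest control-only and LPS-only peaks, the 10 largest called rises and falls with separate libraries, and up to 3 hosts with the most peaks per gene list, all with a symbol. Other genes are said to be named after their values were seen, or are members of a list counted whole. Some genes that these rules name are not reported here.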

Additional observations from a re-analysis of the deposited data

How the results depend on the processing

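No call of a named host turned its sign: of 762 values for 85 hosts under the alternatives, 713 stayed on their side of the threshold, 40 (12 genes) were no longer called and 9 (7 genes) became called. Scaling libraries to equal medians moved falls to 1508 for all genes, 301 for hosts, 176 for control-only, 153 for shared and 6 for LPS-only hosts, and rises among control-only hosts to 31. Requiring 50% of both peaks for overlap gave 59 rises and 359 falls among control-only hosts. Among LPS-only hosts it gave 139 rises and 128 falls, so that rises and falls were nearly equal in number. The shared shares were then 52.9% and 65.1%, and 57.5% of control-only hosts had another peak in the LPS list. Requiring an internal-exon partner gave 61.1%, 75.5% and 51.1%. Peaks with a fold enrichment of at least 2 gave internal-exon shares of 27.4% and 29.7% and medians of 4.83 and 4.52. A peak p-value of at most 1e-10 gave medians of 4.51 and 4.29 and 42.5% with another peak in the LPS list. Leaving out second and penultimate exons gave shares of 20.3% and 22.1%, a control median of 4.02 and 51.7%. Without 1 library, falls among LPS-only hosts ranged from 8 to 22, among control-only hosts from 220 to 267, and rises among shared hosts from 109 to 138. With the replicate block, which the data do not call for, 259 hosts rose and 599 fell (1071 and 3150 of all genes); it moved no count by over 1.5 times. The cause of these shifts was not tested.

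With 2 libraries a group and 1 peak list a state, small differences in level were not detectable and peaks have no replicate error. Sequences and motif searches were not run because no genome of the files' build was used here.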
